A study of Mus musculus with 36 samples.

Results

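Expression of 10 genes that respond to aryl hydrocarbons and to metals, both carried by airborne particles, was read in lung macrophages and monocytes of mice that breathed filtered air (FA) or concentrated ambient fine particulate matter (PM2.5). The 10 genes were taken by symbol from the 27562 genes of the expression table, and each symbol named 1 row. Of these, 6 belong to the aryl hydrocarbon receptor arm (Ahr, Arnt, Ahrr, Tiparp, Cyp1a1 and Cyp1b1) and 4 to the metal arm (Mtf1, Mt1, Mt2 and Slc30a1). The genes were chosen by name, with earlier results of these data known.

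The aryl hydrocarbon receptor Ahr waits in the cytoplasm and, once it binds a polycyclic aromatic hydrocarbon or a tryptophan metabolite, enters the nucleus, pairs with Arnt and switches on genes whose promoters hold a xenobiotic response element. Classical targets are the cytochrome P450 enzymes Cyp1a1 and Cyp1b1, which oxidise the ligand, and the feedback inhibitors Ahrr and Tiparp. In the metal arm, the zinc sensor Mtf1 binds metal response elements and induces the metallothioneins Mt1 and Mt2, small proteins that hold zinc and cadmium, and Slc30a1, the transporter that moves zinc out of the cell.

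The mice were C57BL/6J males carrying CD45.2, irradiated with the chest shielded and given busulfan, and then transplanted with marrow of B6.SJL-Ptprca Pepcb/BoyJ donors carrying CD45.1. Cells carrying CD45.2 therefore belonged to the host and cells carrying CD45.1 to the donor marrow. Exposure to FA or PM2.5 lasted 4-weeks or 32-weeks. Alveolar macrophages (AΦ) were sorted as CD64+ CD11c hi CD11b lo cells and lung monocytes as CD11b hi CD64 lo cells lacking Ly6G and MHC II. There were 36 libraries in 12 groups of 3, numbered 0, 1 and 2 in each group. At 4-weeks only CD45.2 cells were sequenced, namely tissue-resident AΦ (TR-AΦ) and CD45.2 monocytes. At 32-weeks there were TR-AΦ, marrow-derived CD45.1 AΦ (BM-AΦ), CD45.2 monocytes and CD45.1 monocytes. The labels at 32-weeks number the cells 1 and 2, and the key given for AΦ, by which 1 stands for CD45.1 cells and 2 for CD45.2 cells, was applied to monocytes as well. By the paper's account 3 mice of each exposure and time were selected, and their AΦ and monocytes were sequenced. Populations of the same exposure and time may therefore share mice, but the labels do not say which libraries came from the same mouse. The main fits treat all libraries as independent, so p-values measure the spread between libraries. Tests across populations leave out any pairing by mouse. The 4-week and 32-week mice also differed in age and in time since transplantation, which cannot be told apart from the length of exposure. CD45.2 marrow cells that survived conditioning may be among the CD45.2 monocytes, since the marker shows only the host.

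Values are FPKM, fragments scaled by transcript length and by the mapped total, computed by the authors. The sequencing depth is given in the methods as 1 nominal number for the study, and the mapped total of each library is not given in the sources used here. Library sums of FPKM ran from 1.84e+06 to 3.34e+06. Summed markers of alveolar macrophages lay between 5550 and 12224 FPKM in the 18 AΦ libraries and between 174 and 1505 in the 18 monocyte libraries. Siglecf, a defining AΦ receptor, was at 69.6 FPKM or above in AΦ and at 8.99 or below in monocytes, and Siglec5 was not among the listed genes. Summed monocyte markers ran the other way, from 107 to 571 in AΦ and from 1292 to 3818 in monocytes, and Ly6c2 was listed at 0 in 9 of the 18 AΦ libraries. The sorted cells thus carried the markers of their labels. In the 4-week CD45.2 monocytes, library 2 of each exposure also held 381 and 1104 FPKM of neutrophil markers, against at most 78.8 in every other library. At 32-weeks library 2 held the most red cell markers in each of the 8 groups (17.7 to 85.8 FPKM), while at 4-weeks it held the least in each of the 4 groups (0 to 1.31 FPKM).

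Promoters of the members were searched for the core letters that each factor reads, in a short window before 1 start site, and some of the sequences are printed here. RefSeq start sites of GRCm38.p6 gave a promoter for 9 of the 10 genes, and Ahr was not among them. The 250 bases before the start were searched on both strands for the metal response element core, TGCACNC or TGCGCNC, and for the xenobiotic response element core, GCGTG. At least 1 metal core was found in 21.4% of all 32851 promoters in the table and at least 1 xenobiotic core in 28.2%. Capitals in the first 3 sequences mark the metal core, and in the last 3 the xenobiotic core, in the reading direction of the gene.
Mt1, chr8:94178839-94179088, + strand: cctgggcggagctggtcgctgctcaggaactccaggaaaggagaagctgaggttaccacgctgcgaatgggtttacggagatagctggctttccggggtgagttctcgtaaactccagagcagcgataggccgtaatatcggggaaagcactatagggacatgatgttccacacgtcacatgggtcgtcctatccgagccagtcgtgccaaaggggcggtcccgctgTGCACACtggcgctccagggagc
Mt2, chr8:94172368-94172617, + strand: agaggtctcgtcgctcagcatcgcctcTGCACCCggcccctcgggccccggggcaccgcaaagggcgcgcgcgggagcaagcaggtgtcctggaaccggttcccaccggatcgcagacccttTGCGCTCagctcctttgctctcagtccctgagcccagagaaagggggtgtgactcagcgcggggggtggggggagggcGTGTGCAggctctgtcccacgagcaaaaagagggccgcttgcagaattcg
Slc30a1, chr1:191906531-191906780, + strand: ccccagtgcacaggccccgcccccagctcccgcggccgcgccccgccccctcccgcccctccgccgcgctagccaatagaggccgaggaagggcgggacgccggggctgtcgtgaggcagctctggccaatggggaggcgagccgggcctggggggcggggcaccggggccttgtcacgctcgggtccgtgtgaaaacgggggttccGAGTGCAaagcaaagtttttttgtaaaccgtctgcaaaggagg
Cyp1a1, chr9:57697363-57697612, + strand: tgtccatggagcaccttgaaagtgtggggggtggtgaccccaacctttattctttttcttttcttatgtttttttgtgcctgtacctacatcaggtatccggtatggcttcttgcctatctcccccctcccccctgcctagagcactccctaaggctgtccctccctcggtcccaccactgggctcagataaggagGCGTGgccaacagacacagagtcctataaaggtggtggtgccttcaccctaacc
Cyp1b1, chr17:79715062-79715311, - strand: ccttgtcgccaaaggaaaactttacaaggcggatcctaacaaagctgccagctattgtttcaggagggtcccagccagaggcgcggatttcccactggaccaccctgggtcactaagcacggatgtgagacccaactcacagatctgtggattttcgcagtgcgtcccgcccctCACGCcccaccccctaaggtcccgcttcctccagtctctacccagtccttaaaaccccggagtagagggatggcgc
Tiparp, chr3:65528197-65528446, + strand: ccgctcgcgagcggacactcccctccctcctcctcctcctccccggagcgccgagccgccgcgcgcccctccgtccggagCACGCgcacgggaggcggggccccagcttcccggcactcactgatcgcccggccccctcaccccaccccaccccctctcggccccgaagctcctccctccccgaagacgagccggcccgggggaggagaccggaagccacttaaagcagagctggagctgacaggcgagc
The Mt2 window held 3 metal cores, beginning 223, 128 and 50 bases before the start, and 1.26% of all promoters held as many or more. Mt1 held 1, beginning 23 bases before the start, and Slc30a1 held 1, beginning 43 bases before it. Cyp1a1 held 1 xenobiotic core 54 bases before the start, Cyp1b1 held 1 at 76 bases and Tiparp held 1 at 170 bases. Ahrr held 3 xenobiotic cores, a number reached by 2.77% of all promoters, and 1 metal core. Arnt, Mt1, Mt2 and Slc30a1 held 1 xenobiotic core each, and Mtf1 held neither motif. In Mt2 and in Ahrr, 1 metal core shared bases with a xenobiotic core. These windows depend on the start chosen, because annotated coding transcripts of Mt1 also begin 122 and 152 bases after it and those of Mt2 46 and 242 bases after it. Elements outside the window were not searched for, so a low count does not mean that a gene lacks them. A match is a description of the letters and not evidence of binding.

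In the mm10 coordinates of the table, Ahr lies at chr12:35497974-35535038, Arnt at chr3:95434388-95497240, Ahrr at chr13:74211118-74292331, Tiparp at chr3:65507257-65555518, Cyp1a1 at chr9:57697613-57703822 and Cyp1b1 at chr17:79706953-79715041. Mtf1 lies at chr4:124802104-124862171, Slc30a1 at chr1:191890231-191913247, and the neighbours Mt2 and Mt1 at chr8:94172618-94173567 and chr8:94179089-94180325. Each value covers a whole gene, exons of all its transcripts included. Annotated genes on the other strand overlap Ahr, Tiparp, Mtf1, Mt2 and Slc30a1, and a pseudogene on the same strand overlaps Arnt. How strand was treated in counting is not given in the sources used here, so reads of such partners cannot be told apart. The longest run of bases shared by an Mt1 and an Mt2 transcript was 20.

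Ahr, the receptor itself, separated the cell types more widely than any other tested member. In TR-AΦ at 4-weeks it was at 1.48, 0.572 and 2.56 FPKM under FA and at 0.636, 0.909 and 4.22 FPKM under PM2.5. At 32-weeks TR-AΦ held 0.464, 0.589 and 0.922 FPKM under FA and 0.526, 0.673 and 0.692 under PM2.5. BM-AΦ held 5.07, 1.42 and 3.08 FPKM under FA and 3.73, 3.07 and 2.06 under PM2.5. All AΦ values were low, the BM-AΦ values were above every 32-week TR-AΦ value, and the 2 highest TR-AΦ values came from library 2 of each 4-week group. Those 2 libraries also held the most monocyte markers of all AΦ libraries, 507 and 571 FPKM, and the part of these markers in the Ahr values was not tested. In RNA of sorted populations, fewer cells of a type and less RNA per cell cannot be told apart.

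Monocytes held far more Ahr. CD45.2 monocytes at 4-weeks were at 31.6, 28.6 and 37.0 FPKM under FA and at 38.4, 46.0 and 34.7 under PM2.5. At 32-weeks they were at 37.0, 38.4 and 107 FPKM under FA and at 42.1, 33.8 and 53.9 under PM2.5. CD45.1 monocytes were at 31.6, 79.1 and 122 FPKM under FA and at 42.6, 34.5 and 46.5 under PM2.5. The lowest monocyte library lay above the highest AΦ library, and the 3 highest monocyte values were all from FA libraries at 32-weeks. Over both exposures, mean Ahr ran from low to high in the order TR-AΦ at 32-weeks (0.644 ± 0.161 FPKM, SD, n = 6), TR-AΦ at 4-weeks (1.73 ± 1.43), BM-AΦ (3.07 ± 1.28), CD45.2 monocytes at 4-weeks (36 ± 6.04), the same cells at 32-weeks (52.0 ± 27.6) and lastly CD45.1 monocytes (59.3 ± 34.9). Only the step from BM-AΦ to monocytes was clear of overlap between neighbours in that order.

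Arnt, the partner that Ahr needs on DNA, varied much less. It lay between 7.54 and 15.5 FPKM in AΦ and between 15.4 and 29.5 FPKM in monocytes, so the cell types met at the border. Per length, Ahr was 0.0452 to 0.448 of Arnt in AΦ and 1.42 to 4.12 times Arnt in monocytes. Arnt thus exceeded Ahr in all 18 AΦ libraries and Ahr exceeded Arnt in all 18 monocyte libraries.

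Ahrr, the repressor that competes with Ahr for Arnt, stayed near the lower end of the table. It was listed at 0 in 6 of the 18 AΦ libraries and reached at most 0.309 FPKM in the others. In monocytes it was above 0 in all 18 libraries and lay between 0.0565 and 1.48 FPKM. Tiparp, a mono-ADP-ribosyltransferase that marks Ahr for degradation, was by contrast among the well expressed members. It lay between 35.6 and 80.4 FPKM in AΦ and between 65.6 and 210 FPKM in monocytes. The ranges of the cell types overlapped over all times and exposures, with the 3 highest monocyte libraries (194, 206 and 210 FPKM) again from FA at 32-weeks.

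The P450 targets were at the floor of the table. Cyp1a1 was listed at 0 in 32 of 36 libraries. Its 4 values above 0 were 0.0671 FPKM in BM-AΦ under FA, 0.0581 and 0.0602 in BM-AΦ under PM2.5 and 0.122 in CD45.2 monocytes under PM2.5 at 4-weeks. Cyp1b1 was listed at 0 in 34 of 36 libraries and read 0.114 FPKM in CD45.2 monocytes under FA and 0.0583 in CD45.1 monocytes under PM2.5, both at 32-weeks. Without the mapped total of each library no limit of detection was computed, and no fold was formed for either gene.

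**Figure D1:**
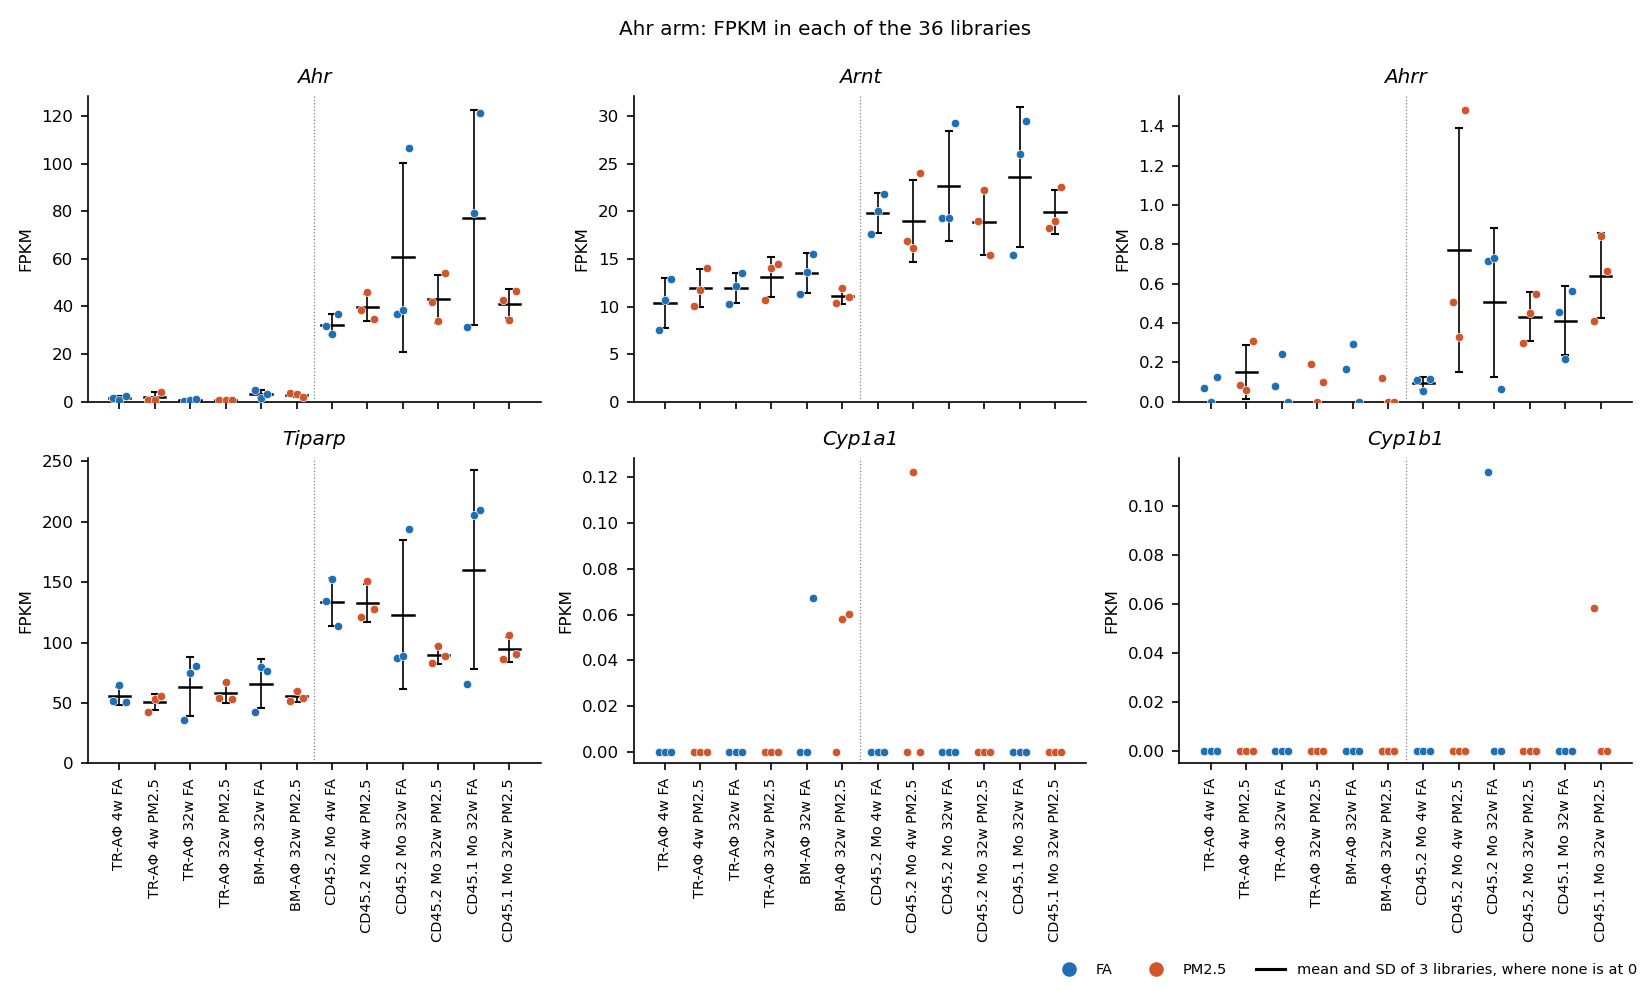
FPKM of the 6 genes of the Ahr arm in each library, by cell type, origin and time, with FA in blue and PM2.5 in orange (4w and 32w are the times, and lines are the mean and SD of 3 libraries where none is at 0). Ahr lies at 5.07 FPKM or below in AΦ and at 28.6 or above in monocytes, while Cyp1a1 and Cyp1b1 stay at or below 0.122 FPKM everywhere.

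In the metal arm, the sensor Mtf1 was low and even. It lay between 6.42 and 11.7 FPKM in AΦ and between 3.41 and 7.46 in monocytes. Slc30a1 lay between 3.79 and 12.9 FPKM in AΦ and between 10.2 and 32.6 in monocytes, so the exporter was the metal gene that stood higher in monocytes.

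Mt1 was the most abundant member in AΦ. TR-AΦ at 4-weeks held 163, 193 and 321 FPKM under FA and 193, 253 and 263 under PM2.5. At 32-weeks TR-AΦ held 143, 150 and 148 FPKM under FA and 181, 175 and 128 under PM2.5. BM-AΦ held 129, 106 and 101 FPKM under FA and 124, 133 and 114 under PM2.5. Within each exposure the 4-week TR-AΦ values all lay above the 32-week ones.

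Monocytes showed a much wider spread of Mt1. CD45.2 monocytes at 4-weeks held 45.8, 22.6 and 17.5 FPKM under FA and 54.0, 46.0 and 28.0 under PM2.5. At 32-weeks they held 329, 81.4 and 149 FPKM under FA and 116, 184 and 37.9 under PM2.5. CD45.1 monocytes held 58.3, 195 and 118 FPKM under FA and 97.9, 64.0 and 15.0 under PM2.5. At 4-weeks every monocyte library lay below every TR-AΦ library, whereas at 32-weeks monocyte libraries lay on both sides of the AΦ range.

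Mt2 followed the same outline at a lower level. TR-AΦ at 4-weeks held 46.6, 37.7 and 85.3 FPKM under FA and 45.8, 52.7 and 77.7 under PM2.5. At 32-weeks they held 17.7, 23.2 and 18.6 FPKM under FA and 24.6, 23.9 and 16.8 under PM2.5. BM-AΦ held 21.2, 12.7 and 5.98 FPKM under FA and 10.6, 15.2 and 15.8 under PM2.5. The lowest 4-week TR-AΦ library was above the highest 32-week one over both exposures.

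In monocytes Mt2 ranged from 1.15 to 114 FPKM. CD45.2 monocytes at 4-weeks held 8.86, 2.29 and 6.22 FPKM under FA and 1.15, 5.36 and 2.82 under PM2.5. At 32-weeks they held 114, 18.8 and 10.7 FPKM under FA and 25.9, 33.8 and 1.51 under PM2.5. CD45.1 monocytes held 11.6, 28.1 and 3.38 FPKM under FA and 11, 5.58 and 3.47 under PM2.5. The 114 FPKM came from the same library as the 329 FPKM of Mt1, CD45.2 monocytes under FA, library 0, which also had the lowest summed monocyte markers of all monocyte libraries, 1292 FPKM. By mean, Mt1 ran from CD45.2 monocytes at 4-weeks (35.7 ± 14.9 FPKM, SD, n = 6) over CD45.1 monocytes (91.3 ± 61.9), BM-AΦ (118 ± 13.0), CD45.2 monocytes at 32-weeks (150 ± 102) and TR-AΦ at 32-weeks (154 ± 20.2) to TR-AΦ at 4-weeks (231 ± 58.7). Each neighbour in that order overlapped the next. Mt1 exceeded Mt2 in 36 of 36 libraries, by 2.81 to 46.7 times with a median of 7.29.

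**Figure D2:**
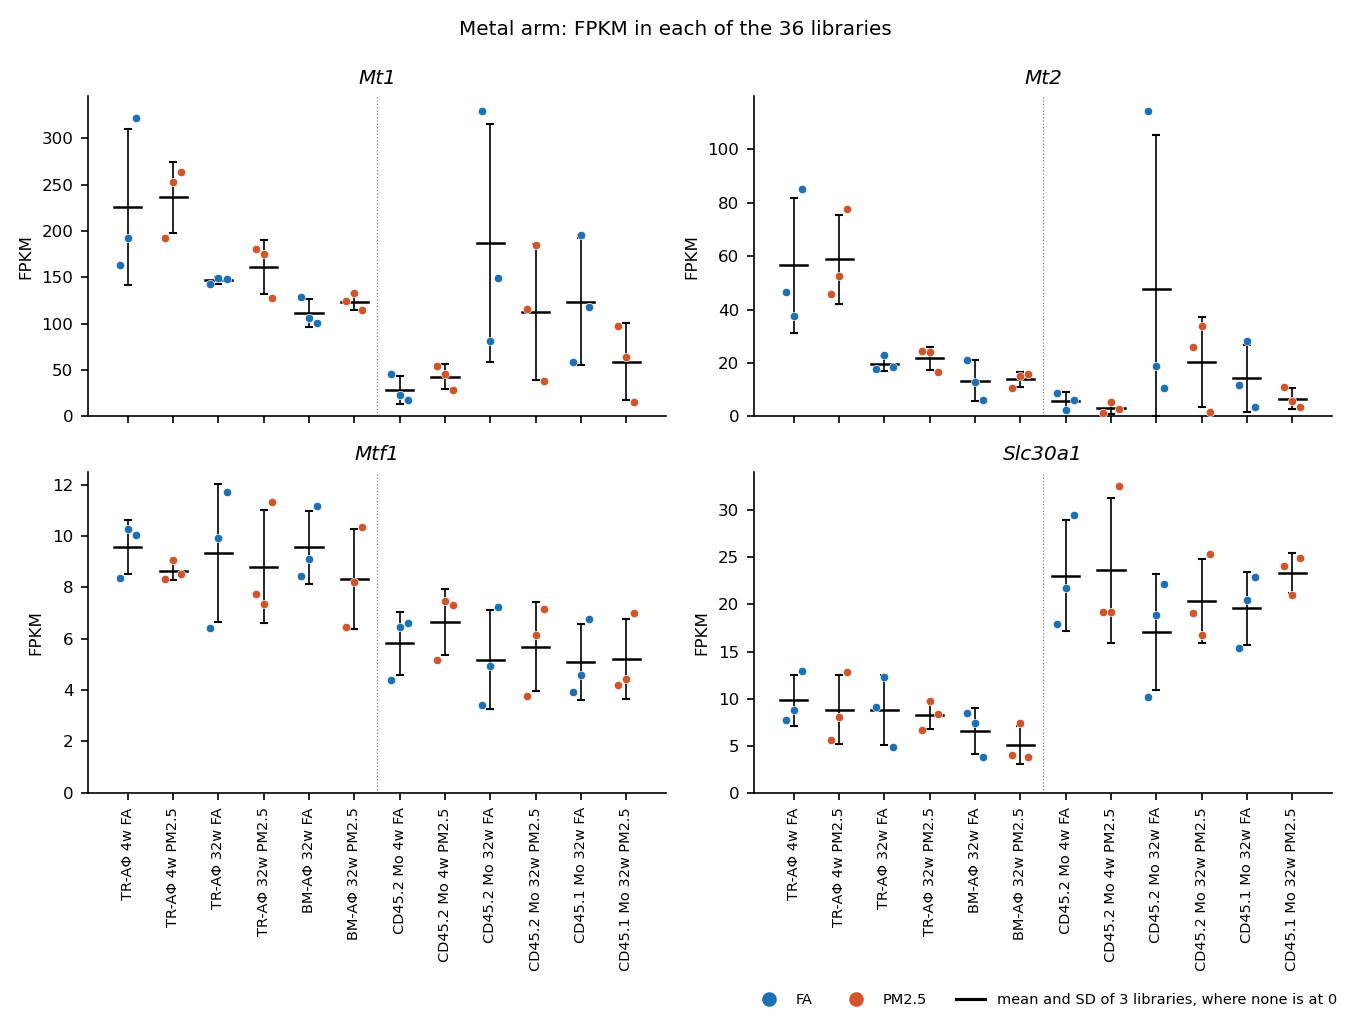
FPKM of the 4 genes of the metal arm in each library, drawn as for the Ahr arm. Mt1 and Mt2 have their highest means in TR-AΦ at 4-weeks (libraries at 163 to 321 and 37.7 to 85.3 FPKM) and their highest single values, 329 and 114 FPKM, in a library of CD45.2 monocytes under FA at 32-weeks.

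For the tests, limma was fitted to log2(FPKM + 1) over all genes that averaged 1 FPKM or more, and a gene was called at a Benjamini-Hochberg adjusted p under 0.05. A log2 fold change on that scale understates the change of low genes. Of the 10 members, 7 passed the filter in each of the 3 fits (AΦ, monocytes and both). Ahrr, Cyp1a1 and Cyp1b1 did not pass and are given by their values. Ahr passed in AΦ with a mean of 1.82 FPKM, close to the filter, carried by BM-AΦ and by 2 libraries at 4-weeks.

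Whether PM2.5 moved these genes is the question closest to the exposure, and no member was called. In each of the 8 comparisons of PM2.5 with FA, limma called 0 of 7 tested members and 0 had an unadjusted p under 0.05. Over all genes the share called was 0.0079% in TR-AΦ at 4-weeks, 0.0% in TR-AΦ at 32-weeks, 0.0158% in BM-AΦ and 0.0079% for the mean of the 3 AΦ populations. In monocytes it was 0.00778% for CD45.2 cells at 4-weeks, 0.0% for each population at 32-weeks and 0.00778% for their mean. The tests therefore called hardly any of the genes tested for PM2.5, and the members did not stand out from that background. The authors' pairwise Cuffdiff tests, a different method, reported more genes in AΦ, so these shares hold for limma only.

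The intervals show what sizes were compatible with these libraries, and are printed only for the member with the smallest p in each comparison. The member with the smallest p in TR-AΦ was Arnt, at 0.20 log2 at 4-weeks (95% interval -0.19 to 0.60) and 0.12 at 32-weeks (-0.28 to 0.51), and Arnt had it in BM-AΦ as well, at -0.26 (-0.65 to 0.14). For the mean of the 3 AΦ populations it was Mtf1, at -0.13 (-0.39 to 0.13). In monocytes it was a metallothionein each time and the intervals were far wider. Mt1 stood at 0.62 (-0.95 to 2.2) in CD45.2 monocytes at 4-weeks and at -1.25 (-2.83 to 0.33) in CD45.1 monocytes at 32-weeks. Mt2 stood at -1.17 (-3.35 to 1.01) in CD45.2 monocytes at 32-weeks and at -0.87 (-2.13 to 0.39) for the mean of the monocyte populations. Without PM2.5 library 2 the CD45.2 value for Mt2 at 32-weeks was 0.03, and without the same library of the CD45.1 group the Mt1 value was -0.47. The printed intervals in monocytes, all of metallothioneins, thus spanned several log2 units and both directions. Those printed in AΦ were narrower, but they belong to Arnt and Mtf1, the partner and the sensor. They set no bound on the response of Ahr, Tiparp, Mt1, Mt2 or Slc30a1 in AΦ. The AΦ intervals of these members appear only in the plot of PM2.5 against FA.

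By values alone, 1 member had PM2.5 and FA libraries that did not overlap, in 1 of the 6 populations. This was Ahrr in CD45.2 monocytes at 4-weeks, where it was at 0.110, 0.0565 and 0.117 FPKM under FA and at 0.505, 0.330 and 1.48 FPKM under PM2.5. The difference was 0.64 log2 (exact two-sided permutation test, p = 0.1, the smallest that 3 against 3 libraries allow). In that population 3.54% of the genes tested were higher without overlap and 6.57% were apart in either direction. Ahrr was under the filter and so not among those genes, and no share was formed for genes at its level. At 32-weeks the Ahrr groups overlapped in both monocyte populations. The highest Ahrr value, 1.48 FPKM, was in library 2 under PM2.5, which held the 1104 FPKM of neutrophil markers, while library 2 under FA held 381 FPKM of them and 0.117 FPKM of Ahrr. The part of these markers in the difference was not tested.

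**Figure D3:**
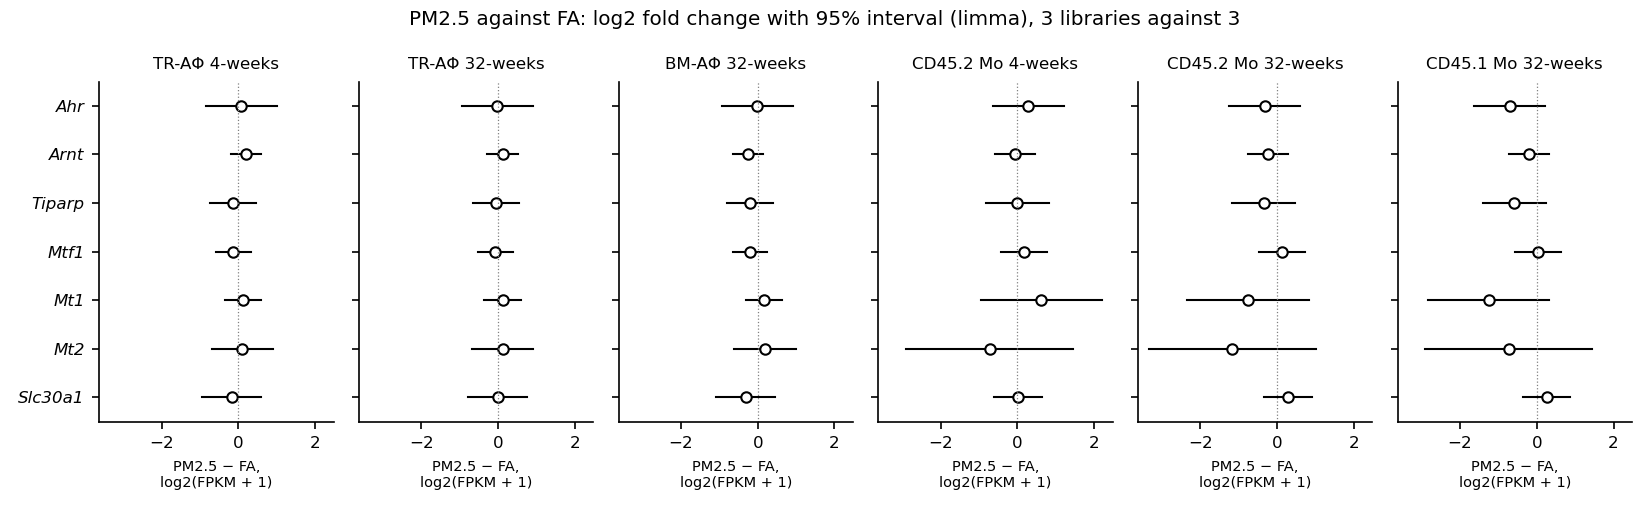
Log2 fold change of PM2.5 against FA for the tested members in each population, with 95% intervals from limma, higher under PM2.5 to the right. Every interval crosses 0, and those of Mt1 and Mt2 in monocytes are the widest.

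Within a cell type, the comparison of 32-weeks with 4-weeks was the one with called members, and they were metallothioneins. In TR-AΦ over both exposures, 1 of 7 tested members was called, against 5.91% of all genes in either direction and 3.35% in the lower one. Mt2 fell by 1.38 on the log2 scale (SE 0.264, limma adjusted p = 0.00827), which is 2.61 times lower at 32-weeks. Its 6 libraries of each time did not overlap, as was so for 2.31% of genes in the lower direction. Mt1 stood at -0.55 (SE 0.155, limma adjusted p = 0.0506), just outside the threshold. Within FA alone the Mt2 value was -1.39 (limma adjusted p = 0.123) and within PM2.5 alone -1.38 (limma adjusted p = 0.0949), and neither was called, with 0.782% and 1.05% of all genes called there. Within each exposure the libraries of both Mt1 and Mt2 were lower without overlap, as for 7.94% of genes under FA and 8.23% under PM2.5. The difference between the exposures in this change was 0.01 log2 for Mt2 (95% interval -1.12 to 1.15), and 0 members were called for it by limma (0 at an unadjusted p under 0.05, and 0.0079% of all genes called). Without the libraries numbered 2, which at 4-weeks held more monocyte and neutrophil markers than the others, Mt2 was at -1.0 (limma adjusted p = 0.0351).

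The wider metal and Ahr pathways were read in the same comparison. Of 16 zinc transporters tested in AΦ, 0 were called by limma, and their median was 0.18 log2 against 0.03 over all genes. Of 11 other metal genes, 1 was called, Txnrd1, a thioredoxin reductase, at -0.72. Of the receptor's chaperones and coactivators 0 of 8 were called, and of 6 other Ahr targets only Nfe2l2, the oxidative stress regulator also known as Nrf2, at -0.65. Immediate early and heat shock genes, which respond quickly to handling of cells, were lower in 5 of 10 cases, with Egr1 at -2.76, Hspa1a at -2.66 and Ier2 at -1.71. These moved with Mt2 between the times, and their part in its change was not tested.

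In CD45.2 monocytes Mt1 was higher at 32-weeks and Mt2 was not called. Here 1 of 7 members was called between the times, against 14.9% of all genes in either direction and 7.06% in the higher one, so the members' share was near that of all genes. Mt1 was 3.62 times higher at 32-weeks (1.85 log2, SE 0.521, limma adjusted p = 0.0272). Mt2 was at 2.05 (SE 0.720, limma adjusted p = 0.0719) and was not called. The 4-week and 32-week libraries overlapped for both genes. The Mt1 call rested on few libraries. It was lost without any one of library 1 or 2 of FA at 4-weeks, library 2 of PM2.5 at 4-weeks, library 0 of FA at 32-weeks, or library 0 or 1 of PM2.5 at 32-weeks, with limma adjusted p between 0.0565 and 0.0749 and a value never under 1.59. Without all libraries numbered 2 it was at 1.92 (limma adjusted p = 0.0635). Summed AΦ markers lay between 174 and 330 FPKM in the 4-week monocytes and between 290 and 1505 in the 32-week ones, and monocyte markers between 3065 and 3818 against 1292 and 3241. Without the 2 libraries at 32-weeks with the most AΦ markers (1505 and 772 FPKM), Mt1 was at 1.64 (limma adjusted p = 0.0988). Of 14 zinc transporters tested in monocytes 3 were called between the times, Slc30a4 (1.70 log2) and Slc39a10 (0.89) higher and Slc39a13 (-0.78) lower. Of 11 other metal genes 2 were called, with Slc11a2, the divalent metal importer, at 0.91 and Slc11a1 at -0.59. Of 10 other Ahr targets 5 were called and 4 were lower, led by Il10 (-2.20) and the protease inhibitor Serpinb2 (-1.93), while Lpl (1.10) was higher. The medians of these lists were 0.12, -0.23 and -0.47 against -0.05 over all genes.

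The difference between the cell types in the change over time was itself tested. In CD45.2 cells, 2 of 7 members were called, against 7.88% of all genes. The change from 4-weeks to 32-weeks was lower in TR-AΦ than in monocytes by 2.41 log2 for Mt1 (difference -2.41, SE 0.563, limma adjusted p = 0.00685) and by 3.44 log2 for Mt2 (difference -3.44, SE 0.797, limma adjusted p = 0.00641). Both calls were kept in each of the 32 alternatives, with adjusted p of at most 0.0423 and 0.0173. The other 5 tested members were not called, Ahr with the smallest p among them at -1.0 (95% interval -1.90 to -0.10, limma adjusted p = 0.182).

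**Figure D4:**
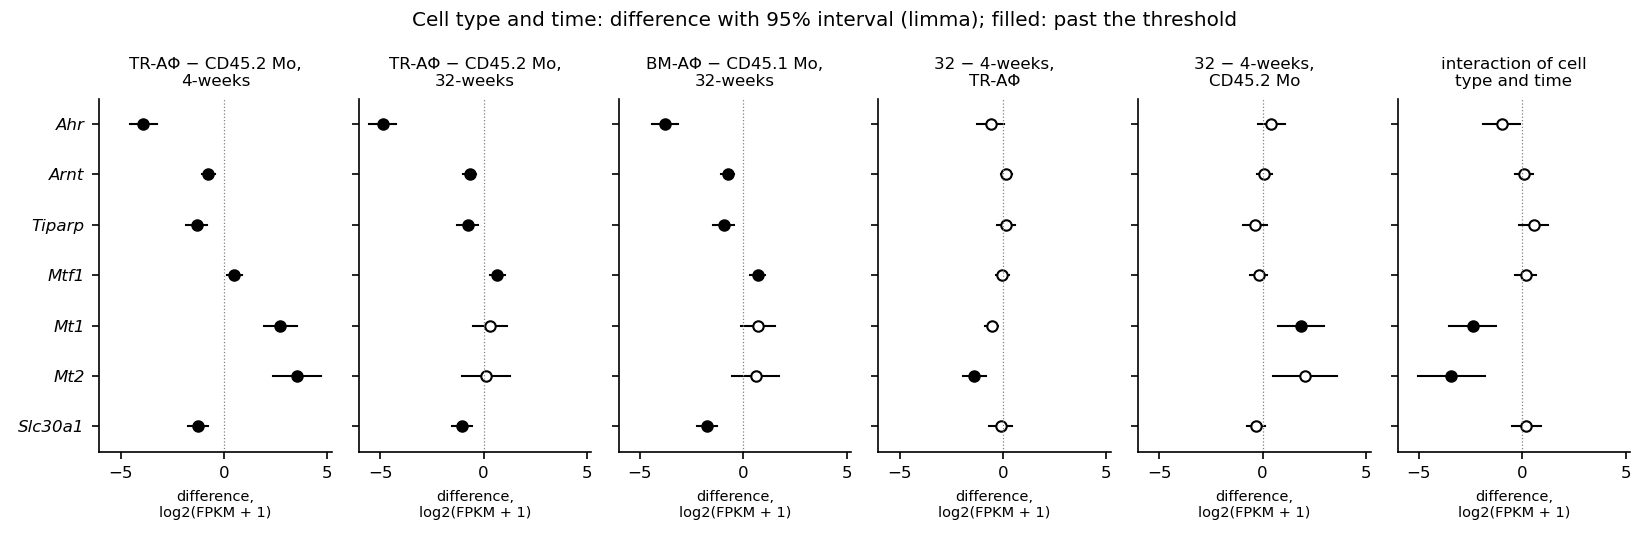
Log2 fold change of the tested members, with 95% intervals from limma, between the cell types and between the times. The last panel instead shows the difference between the cell types in the change over time, in CD45.2 cells. Mt2 falls with time in TR-AΦ (-1.38) while Mt1 rises in CD45.2 monocytes (1.85), and Ahr is lower in AΦ in every comparison of cell types.

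Between the cell types most tested members were called, and so was a large share of all genes. At 4-weeks 7 of 7 tested members were called between TR-AΦ and CD45.2 monocytes, 3 higher and 4 lower in TR-AΦ, against 48.2% of all genes, 22.6% higher and 25.5% lower. At 32-weeks 5 of 7 were called between TR-AΦ and CD45.2 monocytes, against 47.3%, and 5 of 7 between BM-AΦ and CD45.1 monocytes, against 50.9%. Libraries did not overlap for 7 members in the first comparison, 3 in the second and 2 in the third, where 29.8%, 26.9% and 30.8% of all genes did not.

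Ahr and its partner were both lower in AΦ each time. Ahr was 14.9 times lower at 4-weeks (-3.89 log2, SE 0.308, limma adjusted p = 3.46e-11), 29.7 times lower at 32-weeks in CD45.2 cells (-4.89, SE 0.308, limma adjusted p = 5.04e-13) and 13.7 times lower in CD45.1 cells (-3.78, SE 0.308, limma adjusted p = 7.23e-11). These folds depend on the 1 FPKM added to low values, and with 0.1 FPKM added the differences were -4.63, -6.03 and -4.16 log2. Arnt was lower by 0.76, 0.67 and 0.76 log2 (limma adjusted p = 0.000163, 0.000667 and 0.000159). Tiparp was lower by 1.31, 0.77 and 0.95 log2 (limma adjusted p = 5.51e-05, 0.0103 and 0.00191). Its call at 32-weeks in CD45.2 cells was lost without the 2 monocyte libraries with the most AΦ markers (-0.55, limma adjusted p = 0.0837) and without the libraries numbered 2 (-0.66, limma adjusted p = 0.109).

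The metal genes split. Slc30a1, the exporter, was lower in AΦ by 1.25, 1.05 and 1.77 log2 (limma adjusted p = 6.55e-05, 0.000519 and 4.43e-07). Mtf1, the sensor, was higher in AΦ by 0.50, 0.66 and 0.70 (limma adjusted p = 0.0215, 0.00294 and 0.00155), and its 4-week call was lost without monocyte library 0 of FA (0.42, limma adjusted p = 0.0680) or of PM2.5 (0.42, limma adjusted p = 0.0642). Mt1 was 6.66 times higher (2.73 log2, SE 0.398, limma adjusted p = 1.85e-06) and Mt2 11.7 times higher (3.55, SE 0.564, limma adjusted p = 6.79e-06) in TR-AΦ at 4-weeks. At 32-weeks neither was called. Mt1 was then at 0.32 (95% interval -0.49 to 1.14) in CD45.2 cells and 0.71 (-0.11 to 1.53) in CD45.1 cells, and Mt2 at 0.11 (-1.05 to 1.27) and 0.59 (-0.56 to 1.75). TR-AΦ at 4-weeks thus held more metallothionein mRNA and less exporter mRNA than monocytes of the same time.

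The wider pathways are given by their counts at 4-weeks, where 48.2% of all genes were called, 22.6% higher and 25.5% lower. Of the receptor's chaperones and coactivators 4 of 8 were called and all 4 were lower in TR-AΦ, led by the coactivators Ncoa3 (-1.17 log2), Ep300 (-0.81) and Ncoa2 (-0.59). Of 9 other Ahr targets 7 were called, 6 of them lower, such as Xdh, xanthine dehydrogenase (-3.26), and the cytokine Il10 (-2.89), while Lpl, lipoprotein lipase, was higher (4.54). Their medians were -0.45 and -0.90 against -0.02 over all genes. Of 4 genes of kynurenine metabolism, which yields Ahr ligands from tryptophan, all 4 were called. Kynu was higher (1.67) and Haao (-2.22) and Kmo (-1.87) were among the 3 lower. Of 16 zinc transporters tested 9 were called, 8 higher and 1 lower in TR-AΦ, and the median of all 16 was 0.40. The 3 with the greatest change were the importers Slc39a2 (3.94), Slc39a12 (2.43) and Slc39a14 (2.11). Of 11 other metal genes 5 were called and 4 were lower, led by the iron and manganese transporter Slc11a1 (-4.57) and the copper importer Slc31a1 (-1.64). At 32-weeks the counts were 3 and 3 of 8 chaperones and coactivators, 6 and 7 of 9 Ahr targets, 8 and 8 of 16 zinc transporters and 5 and 5 of 11 other metal genes for CD45.2 and CD45.1 cells, where 47.3% and 50.9% of all genes were called. Taken in either direction, the counts of the chaperones and coactivators, zinc transporters and other metal genes were thus near the share of all genes. By direction, 8 of 16 zinc transporters were higher at 4-weeks, against 22.6% of all genes. Of the chaperones and coactivators 4 of 8 were lower, and of the other metal genes 4 of 11, against 25.5%. The counts of these lower genes are small, and no lean to 1 direction is read from them. None of these lists had a call by limma for PM2.5 against FA in any population.

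Origin made less difference than cell type. Between BM-AΦ and TR-AΦ at 32-weeks limma called 0 of 7 members, with 3 at an unadjusted p under 0.05 and 0.316% of all genes called. Ahr had the smallest p, at 1.25 log2 for BM-AΦ against TR-AΦ (SE 0.304, 95% interval 0.60 to 1.90, limma adjusted p = 0.137). Its libraries did not overlap, 1.42 to 5.07 FPKM in BM-AΦ and 0.464 to 0.922 in TR-AΦ, as was so for 0.829% of genes in the higher direction. When only the groups compared were fitted, Ahr was among 78 genes called, against 40 in the main fit. Only its BM-AΦ libraries lay above 1 FPKM here, so passing the filter depended on the group where Ahr was higher. The test and the share without overlap therefore describe the difference and are not separate support for it. At these low levels a difference on the log2(FPKM + 1) scale understates the ratio of the values. Mt1 was at -0.38 (limma adjusted p = 0.556) and Mt2 at -0.65 (limma adjusted p = 0.550). Dendritic cell markers were also apart between these groups, at 8.09 to 25.2 FPKM in BM-AΦ and 1.21 to 3.27 in TR-AΦ, and the BM-AΦ library with the most of them, library 0 under FA, also held the most Ahr. Monocyte markers overlapped, at 253 to 395 against 107 to 373 FPKM. The part of these markers in the Ahr values was not tested. No member was called for a different response to PM2.5 by origin (0 of 7 by limma, 0 at an unadjusted p under 0.05, 0.0158% of all genes). CD45.1 and CD45.2 monocytes differed in 0 of 7 members (0 at an unadjusted p under 0.05, 0.669% of all genes), with Mt2 at -1.13 (95% interval -2.67 to 0.41).

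Genes whose pattern was most like that of a member were ranked by Pearson's r of log2(FPKM + 1) over the 18 libraries of a cell type, which share populations, library size and cell makeup. In AΦ Mt2 was the gene most like Mt1 of 12664 compared (r = 0.930), followed by Hcar2 (0.918) and Tnfaip2 (0.873), and Slc30a1 ranked 409 (0.612). In monocytes Irf2bp2 (0.934) and Map3k6 (0.903) were among the 3 genes most like Mt1 of 12855 compared, Mt2 ranked 75 (0.762) and Slc30a1 ran opposite to it (-0.64). For Ahr in AΦ the nearest were Runx3 (0.947), Cxcl16 (0.942) and Itgb7 (0.940), with Arnt and Tiparp near 0 (0.14 and -0.07). In monocytes the nearest to Ahr were Heatr1 (0.936), Stard7 (0.931) and Ncbp3 (0.925), and Arnt and Tiparp followed it more loosely (0.665 and 0.635). Tiparp was most like the zinc importer Slc39a14 in AΦ (0.887), then Isca1 (0.830) and Tgm2 (0.822), and most like Zfand5 (0.901), Thap6 (0.893) and Vmp1 (0.888) in monocytes.

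**Figure D5:**
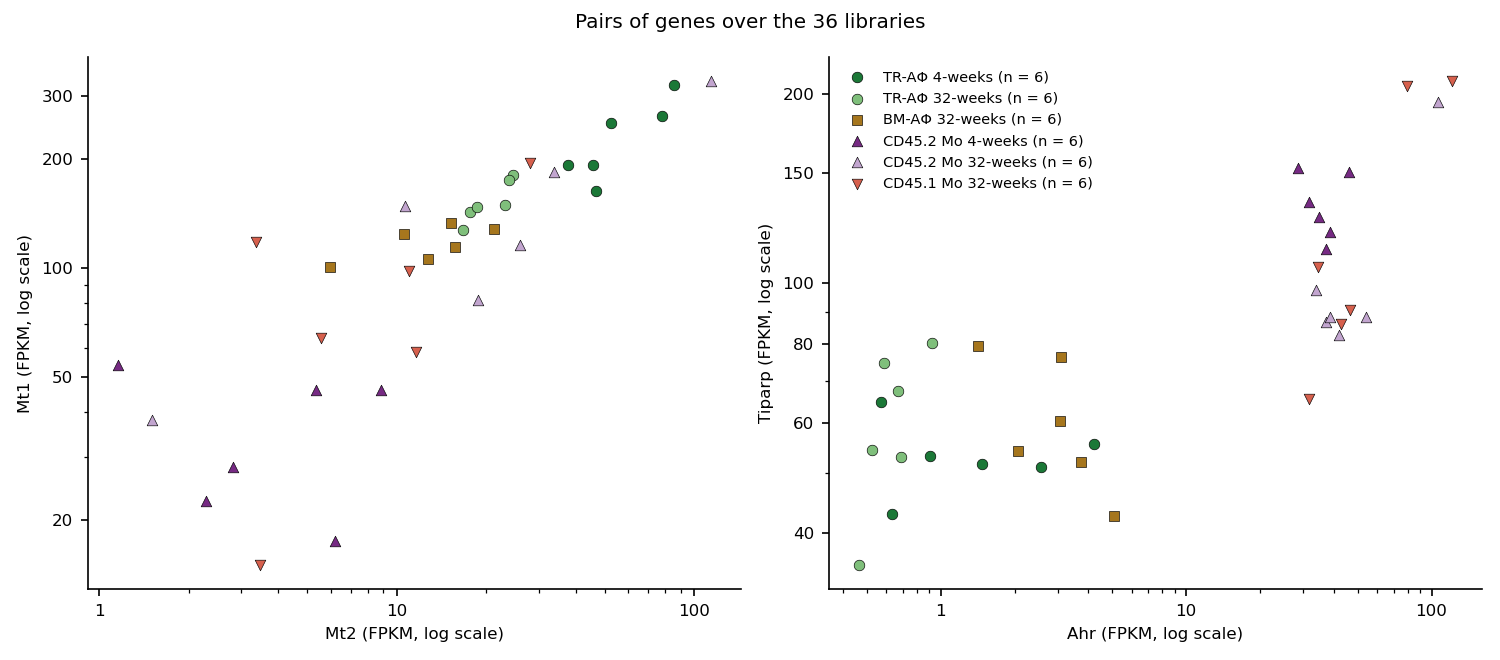
Mt1 against Mt2 and Tiparp against Ahr in FPKM on log axes, 1 point a library, by cell type and time. Mt1 is above Mt2 in all 36 libraries. The Ahr values of the 2 cell types are apart, while those of Tiparp overlap between 65.6 and 80.4 FPKM.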

How the data were processed

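RNA-seq of sorted AΦ and lung monocytes was deposited as 1 table. The authors aligned reads to mm10 with STAR and made FPKM values with Cufflinks, with no counts and no mapped total per library (the methods state only a nominal depth), so no counting interval is given. Gene names, loci and the 36 library columns come from that table. A log2(FPKM + 1) scale was used in limma 3.58.1 (R 4.3.3), with a filter of a mean of 1 FPKM, 1 coefficient per group, and separate fits for the 18 AΦ libraries, the 18 monocyte libraries and all 36. Calls used a Benjamini-Hochberg adjusted p under 0.05 over all genes tested, and intervals are 95%. The fit was also run on simulated independent values with changes planted in 1 AΦ comparison. That run did not model shared mice and did not cover the monocyte fit or the fit of all libraries. All 10 members are given whatever their test shows, with fold changes for those called and, for PM2.5, the one with the smallest p. Values of members that were not called in the comparisons of time, origin and cell type were chosen after they were seen. Of other lists, at most 3 genes called per comparison are named. 1 gene of the likeness ranking is not reported here. The members and lists were chosen with earlier results of these data known. Promoters are RefSeq sequences of GRCm38.p6. Alternatives changed the pseudocount, filter, normalization, groups fitted, block and libraries.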

Additional observations from a re-analysis of the deposited data

Results flagged for a closer look

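2 values differed between groups by a test of the difference itself. The change from 4-weeks to 32-weeks in CD45.2 cells was lower in TR-AΦ than in monocytes by a log2 difference of -2.41 for Mt1 and of -3.44 for Mt2. Markers of AΦ were higher and markers of monocytes lower in the 32-week monocytes. Without the 2 CD45.2 monocyte libraries with the most AΦ markers, the differences were -2.19 for Mt1 and -3.43 for Mt2. The part of the markers in these differences was not tested further. Groups of 3 libraries are too small to test a single library as an outlier.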

How the results depend on the processing

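Of the counts of members called, 206 with 1 library left out and 120 under other settings stayed within 1.5 times the main count, and 10 and 8 did not. For TR-AΦ over time the count of 1 became 2 (Mt1 beside Mt2) with a pseudocount of 0.1, with quantile normalization and with a replicate block, and ranged from 1 to 2 with 1 library left out, 2 being reached without library 0 of FA or of PM2.5 at 4-weeks. Under PM2.5 alone it went from 0 to 1 with the block. For BM-AΦ against TR-AΦ it went from 0 to 1 (Ahr) with the block and when only the groups compared were fitted. For CD45.2 monocytes over time it became 2 (Mt1 and Mt2) with the block, ranged from 0 to 2 with 1 library left out, 2 being reached without library 2 of FA or of PM2.5 at 32-weeks, and was 0 without the 2 libraries with the most AΦ markers. The PM2.5 value of Mt2 in CD45.2 monocytes at 32-weeks ran from -1.86 to 0.034 with 1 library left out, and changed sign without PM2.5 library 2. Of the values of single members, 12 lost their call and 1 changed sign. Over all genes, 748 were called for TR-AΦ over time, 364 without the libraries numbered 2, 378 when only the groups compared were fitted and 1322 with the block. For BM-AΦ against TR-AΦ 40 were called, 93 with the block and 78 when only the groups compared were fitted. For monocytes over time 1914 were called and 1020 without the libraries numbered 2.

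The labels do not say what a number shares. Over 102 pairs with the same number, deviations from the group means correlated at -0.087 to 0.209, with 8 pairs over 0.1, and 108 of 204 comparisons of a library with another group were highest for its own number, against 68 if the numbers were alike. Red cell markers also moved with the number within each time. Since not every pair was over 0.1, the replicate block by number is an alternative only, and what the number stands for was not tested. A block within each exposure, and leaving out the monocyte libraries with the most AΦ markers, were chosen after seeing the data. With no counts, the precision of low values such as Ahrr, Cyp1a1 and Cyp1b1 is unknown.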
